A study of Arabidopsis thaliana with 4 samples.

Results

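The genes described here are the 7 transcription factor genes that direct the stomatal lineage of Arabidopsis thaliana: SPCH (AT5G53210), MUTE (AT3G06120), FAMA (AT3G24140), SCRM (AT3G26744), SCRM2 (AT1G12860), FLP (AT1G14350) and MYB88 (AT2G02820). They were taken by gene identifier, without use of their values, from a table of 33602 genes, and all 7 had a row in it. RNA was measured in guard cells sorted from the aerial tissue of seedlings at 12 days post germination, with 2 libraries from each of 2 genotypes. The first genotype, called FAMA-LGK, is the mutant fama-1 with the transgene FAMAp:FAMA-LGK, in which the FAMA promoter drives a form of FAMA altered in the LxCxE motif that binds the retinoblastoma-related protein RBR1. The second is the wild type (WT). The series describes FAMA-LGK guard cells as reprogrammed and WT guard cells as fully differentiated. The labels do not say how many transgenic lines were used, whether plants were pooled, or whether the 2 libraries of each genotype are independent cultures of plants; p-values therefore cover the spread among these libraries alone, and that spread may be technical.

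Stomata form through a short series of divisions and fate changes, and each step is led by one of a set of related basic helix-loop-helix (bHLH) factors. SPCH starts the lineage and its asymmetric divisions, MUTE turns a meristemoid into a guard mother cell, and FAMA ends division and drives guard cell differentiation. Each acts as a dimer with SCRM (also called ICE1) or its paralog SCRM2, which are bHLH factors of another subgroup. The MYB factors FLP and MYB88 are paralogs that limit the division of the guard mother cell to a single symmetric one.

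The coding sequences of the bHLH members were read from the TAIR10.1 assembly to show how the partners resemble each other where they bind DNA. Each of the 5 encodes the motif ERxRR, in the basic region that contacts DNA. The 78 bases that encode the basic region and the start of the first helix are given below, 5′ to 3′, with the ERxRR codons in capitals.
SPCH: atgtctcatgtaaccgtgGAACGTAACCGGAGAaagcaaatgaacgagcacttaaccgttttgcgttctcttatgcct
MUTE: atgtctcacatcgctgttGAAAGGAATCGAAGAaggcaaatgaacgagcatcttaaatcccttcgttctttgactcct
FAMA: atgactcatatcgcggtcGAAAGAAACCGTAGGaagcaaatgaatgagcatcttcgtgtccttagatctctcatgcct
SCRM: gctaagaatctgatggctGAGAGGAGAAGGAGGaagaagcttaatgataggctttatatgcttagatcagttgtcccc
SCRM2: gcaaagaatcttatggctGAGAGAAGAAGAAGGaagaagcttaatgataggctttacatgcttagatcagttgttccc

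Over these 26 codons, SPCH and FAMA encode the same residue at 22 positions, MUTE and FAMA at 21 and SPCH and MUTE at 20, whereas FAMA and SCRM share 11. SCRM and SCRM2 are identical in all 26 residues, although 72 of the 78 bases match. Over the whole proteins, aligned residues were 75.5% identical between SCRM and SCRM2 and 77.4% between FLP and MYB88, against 53.9% between SPCH and MUTE, 46.7% between SPCH and FAMA and 47.4% between MUTE and FAMA.

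The LxCxE motif, which the LGK form alters, occurs once in FAMA and in none of the other 6 encoded proteins. Of 27377 proteins encoded by the nuclear genome, 3.75% hold the same letters. In FAMA it starts at codon 249, and the reference sequence around it (codons 241 to 261, motif codons in capitals) is shown because it is the site that separates the transgene from WT FAMA.
FAMA: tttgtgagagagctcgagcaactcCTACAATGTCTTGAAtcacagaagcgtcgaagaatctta
Values in the deposited table are per gene, so transcripts with and without this change cannot be told apart in the FAMA values below.

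Levels are in TPM (a transcript abundance), in which reads are divided by gene length and each library is brought to the same total. Organelle genes took 29.8% and 30.8% of TPM in the FAMA-LGK libraries and 27.8% and 25.3% in the WT libraries, and nuclear ribosomal RNA took 33.0% and 22.3% against 24.2% and 27.1%. Differences were tested as log2(TPM + 1) with limma over the 15143 genes whose mean was at least 1 TPM, and a gene was called at a Benjamini-Hochberg adjusted p under 0.05. Fold changes on this scale are FAMA-LGK minus WT and understate the change of low genes. Of the 7 members, 6 passed the minimum and MUTE did not. Of the 6, 1 was called higher (SPCH), 1 lower (SCRM) and 4 were not called, against 6.45% of all tested genes called higher and 6.14% called lower. The median log2 fold change of the 6 was 0.47, against 0.06 over all genes tested. The groups did not overlap for 5 of the 6, against 57.3% of all genes tested. Both FAMA-LGK libraries lay above both WT libraries for 4 of them, against 31.6% of all genes tested, and below for 1, against 25.7%. Leaving out either WT library left no call in limma for any gene, with 2675 genes at an unadjusted p under 0.05 without WT replicate 1 and 2365 without WT replicate 2, so every call below rests on both WT libraries.

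SPCH was the member with the largest shift. It was at 26.6 and 42.2 TPM in the FAMA-LGK libraries, against 4.05 and 2.88 TPM in the WT libraries. The lower FAMA-LGK library was above the higher WT library by a wide margin, while the FAMA-LGK libraries also differed from each other, FAMA-LGK replicate 2 being the higher one. Means were 34.4 ± 11.0 TPM in FAMA-LGK and 3.46 ± 0.825 TPM in WT (SD, n = 2 libraries each), a ratio of 9.92. The log2 fold change was 2.96 (95% interval 2.29 to 3.63, limma adjusted p = 2.9e-04). Without FAMA-LGK replicate 1 it was 3.29 and without FAMA-LGK replicate 2 it was 2.64, with the call kept in both (limma adjusted p = 0.0014 and 0.00334); without WT replicate 1 or WT replicate 2 the adjusted p was 0.0859 and 0.098. Among genes tested, the mean level of SPCH lay above 85.6% of genes in FAMA-LGK and above 32.8% in WT.

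MUTE was near the limit of detection in both genotypes. It was at 1.63 and 1.05 TPM in the FAMA-LGK libraries, against 0.115 and 0.302 TPM in the WT libraries, so the groups did not overlap. From the steps between the values of a gene, these correspond to an estimated 14 and 9 reads in FAMA-LGK and 1 and 3 reads in WT. The ratio of the summed reads, scaled for depth, was 6.24 with an exact 95% interval of 2.13 to 24.8, which covers counting error only and not the spread between samples. With no filter on low values the log2 fold change was 0.95 and was not called (limma adjusted p = 0.138).

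FAMA was abundant in both genotypes. It was at 94.3 and 81.2 TPM in the FAMA-LGK libraries, against 66.1 and 65.6 TPM in the WT libraries. The FAMA-LGK values were the higher ones in both libraries, but the FAMA-LGK libraries differed from each other by over 10 TPM and the WT libraries by less than 1 TPM. The log2 fold change of 0.40 (95% interval -0.05 to 0.86) was not called (limma adjusted p = 0.224). These values cannot separate transgene transcripts from any that the fama-1 locus may give in FAMA-LGK.

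**Figure D1:**
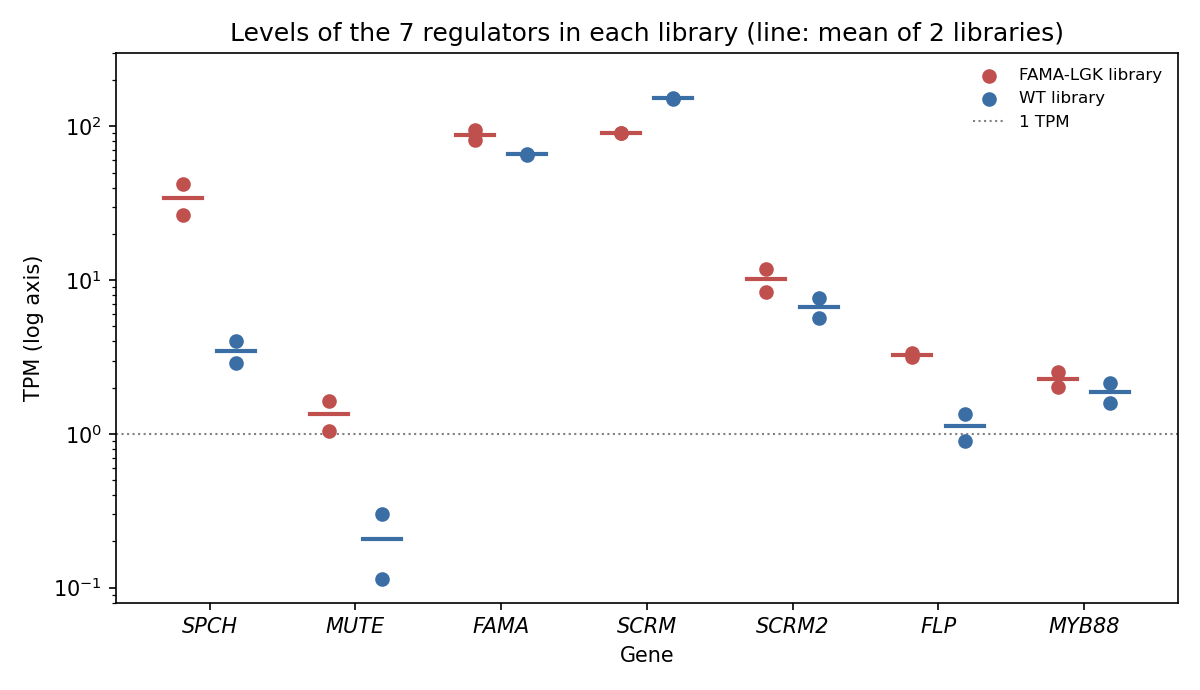
TPM of each of the 7 genes (log axis) in the 2 FAMA-LGK and the 2 WT libraries, 1 point per library, with the mean as a line and 1 TPM dotted. SPCH is at 26.6 and 42.2 TPM in FAMA-LGK, against 4.05 and 2.88 TPM in WT, SCRM is lower in both FAMA-LGK libraries, and the groups overlap for MYB88.

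Of the genes of the dimer partners, SCRM was called lower in FAMA-LGK and SCRM2 was not called. SCRM was at 90.1 and 90.0 TPM in the FAMA-LGK libraries, against 150.4 and 153.2 TPM in the WT libraries. On the deposited TPM scale, SCRM agreed closely within each genotype. Its mean level in FAMA-LGK was 0.593 of that in WT, and the log2 fold change was -0.75 (95% interval -1.18 to -0.31, limma adjusted p = 0.0349). This call was close to the threshold: it was lost when any 1 of the 4 libraries was left out (adjusted p = 0.0597 to 0.252), with no filter on low values (0.074) and after removal of ribosomal RNA and organelle genes (0.113), while the log2 fold change was between -0.76 and -0.73 whichever library was left out. SCRM2 was at 11.9 and 8.42 TPM in the FAMA-LGK libraries, against 7.68 and 5.67 TPM in the WT libraries. The lower FAMA-LGK value of SCRM2 exceeded the higher WT value by less than 1 TPM, and its log2 fold change of 0.53 (95% interval -0.13 to 1.20) was not called (limma adjusted p = 0.271).

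Because both partners are measured in the same library, their ratio does not depend on how the library was scaled. SCRM was 7.58 and 10.7 times SCRM2 in the FAMA-LGK libraries, against 19.6 and 27.0 times in the WT libraries. SCRM2 therefore made up 11.7% and 8.56% of the summed SCRM and SCRM2 TPM in FAMA-LGK, against 4.86% and 3.57% in WT. The groups did not overlap, and SCRM remained the more abundant paralog in every library. An exact two-sided permutation test of 2 libraries against 2 cannot go below p = 0.33, the value it gave for this ratio and for each of the other 6 ratios computed.

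The stage-specific bHLH genes made up a larger amount in FAMA-LGK while their partners made up a smaller one. SPCH, MUTE and FAMA summed to 122.5 and 124.4 TPM in the FAMA-LGK libraries, against 70.3 and 68.8 TPM in the WT libraries. SCRM and SCRM2 summed to 102.0 and 98.4 TPM in FAMA-LGK, against 158.1 and 158.9 TPM in WT. The ratio of the first sum to the second was 1.20 and 1.26 in FAMA-LGK, against 0.445 and 0.433 in WT. On the deposited TPM scale, both sums agreed more closely between the libraries of a genotype than between genotypes. They were not recomputed with ribosomal RNA and organelle genes removed. FAMA, which was not called, holds most of the first sum in every library. Its FAMA-LGK values cannot separate transgene transcripts from any that the fama-1 locus may give.

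FAMA remained the largest of the 3 stage-specific genes in every library, but its share differed. It held 77.0% and 65.3% of their summed TPM in FAMA-LGK, against 94.1% and 95.4% in WT. SPCH held 21.7% and 33.9% in FAMA-LGK, against 5.76% and 4.19% in WT, and MUTE held at most 1.33% in any library. Relative to FAMA, SPCH was at 0.282 and 0.519 in FAMA-LGK and at 0.0612 and 0.0439 in WT. Relative to the summed partners SCRM and SCRM2, SPCH was at 0.260 and 0.429 in FAMA-LGK, against 0.0256 and 0.0181 in WT, and FAMA at 0.924 and 0.826, against 0.418 and 0.413.

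**Figure D2:**
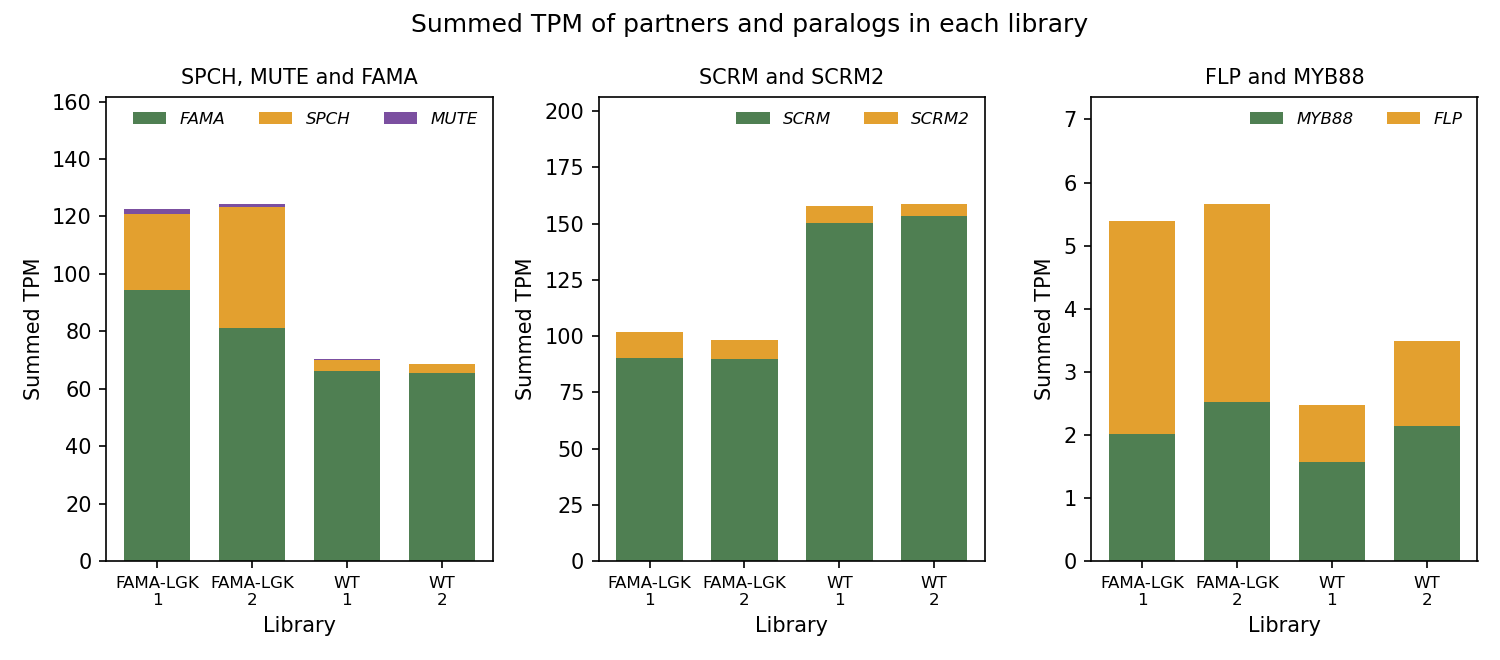
Stacked TPM of the stage-specific bHLH genes, the SCRM paralogs and the MYB paralogs in each library (linear axes from 0, FAMA-LGK libraries left of WT). The sum of SPCH, MUTE and FAMA is 122.5 and 124.4 TPM in FAMA-LGK, against 70.3 and 68.8 TPM in WT, whereas that of SCRM and SCRM2 is 102.0 and 98.4 TPM, against 158.1 and 158.9 TPM.

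The MYB paralogs were the lowest members after MUTE. FLP was at 3.38 and 3.15 TPM in the FAMA-LGK libraries, against 0.893 and 1.35 TPM in the WT libraries, from an estimated 78 and 73 reads and 21 and 36 reads. The groups did not overlap, but the log2 fold change of 1.02 (95% interval 0.20 to 1.83) did not pass after adjustment (unadjusted p = 0.0201, limma adjusted p = 0.102). FLP shares 3.24% of its exon length with AT1G14360 on the opposite strand. Since the handling of strand is not known, reads from the overlap may belong to either gene. AT1G14360 was at 14.1 and 51.3 TPM in FAMA-LGK and 27.8 and 42.8 TPM in WT, and its part in the FLP values was not tested.

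MYB88 was at 2.02 and 2.52 TPM in the FAMA-LGK libraries, against 1.58 and 2.14 TPM in the WT libraries. The groups overlapped, and the log2 fold change of 0.19 had a 95% interval of -0.62 to 1.01 (limma adjusted p = 0.776). FLP was 1.67 and 1.25 times MYB88 in FAMA-LGK, against 0.566 and 0.629 times in WT, so the paralogs stood in the opposite order. FLP made up 62.6% and 55.6% of the summed TPM of the pair in FAMA-LGK, against 36.1% and 38.6% in WT.

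The 7 genes spanned a wide range of levels. In FAMA-LGK the means ran, from high to low, SCRM (90.0 TPM), FAMA (87.8), SPCH (34.4), SCRM2 (10.2), FLP (3.26), MYB88 (2.27) and MUTE (1.34). SCRM and FAMA overlapped there, while each other neighbouring pair was separated in both libraries. In WT the means ran SCRM (151.8 TPM), FAMA (65.9), SCRM2 (6.67), SPCH (3.46), MYB88 (1.86), FLP (1.12) and MUTE (0.208), with no overlap between neighbours. SPCH stood above SCRM2 in both FAMA-LGK libraries and below it in both WT libraries.

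These orders between genes depend on the gene lengths behind the TPM values, which the sources used here do not give. With estimated reads divided by the exon lengths of TAIR10.1, an alternative chosen after seeing the data, SPCH was at 0.153 and 0.251 of the summed SCRM paralogs in FAMA-LGK, against 0.0150 and 0.0106 in WT. FLP was then 2.60 and 1.95 times MYB88 in FAMA-LGK, against 0.880 and 0.977 times in WT, and the stage-specific genes were at 0.954 and 0.964 of their partners, against 0.372 and 0.364. A gene has the same length in every library, so the contrast between genotypes in a ratio of single genes cannot change with length. Where genes are summed it can change. The ratio of the SPCH to partner ratios, FAMA-LGK over WT, was 15.7 with TAIR10.1 lengths and 15.8 as deposited. For the summed stage-specific genes over their partners it was 2.61 with TAIR10.1 lengths and 2.81 as deposited.

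**Figure D3:**
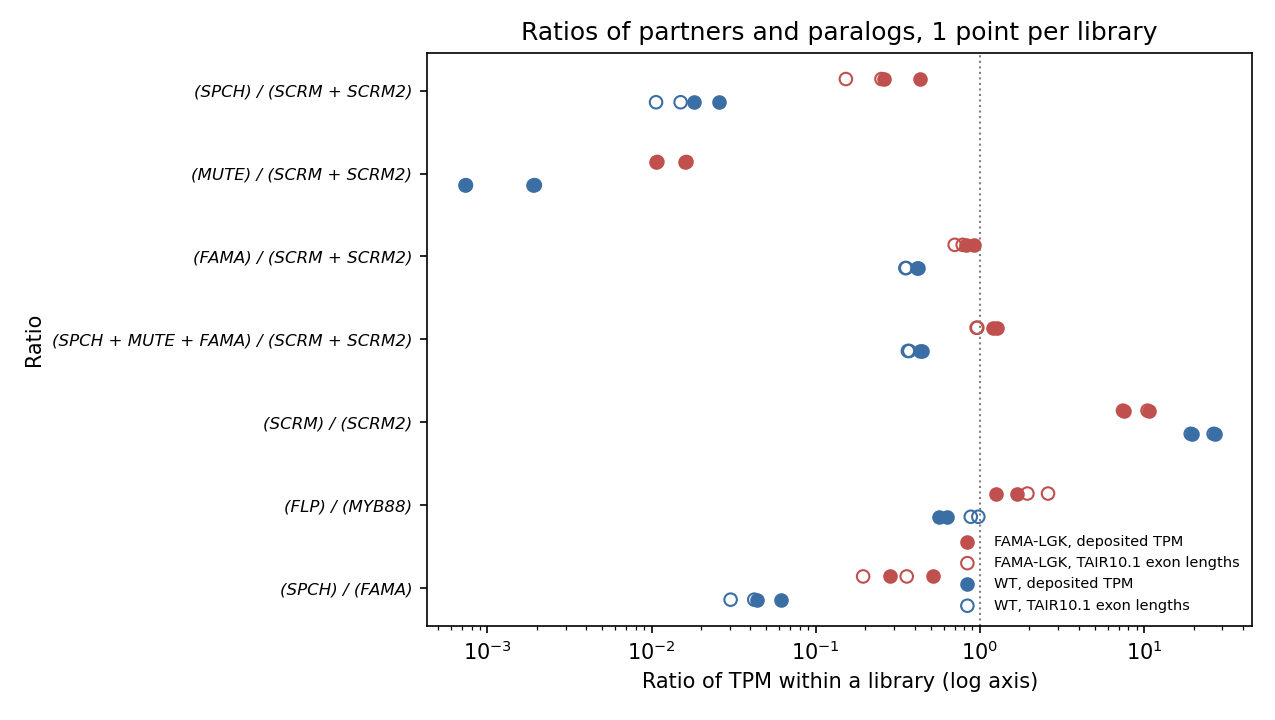
Ratios between members within each library (log axis), 1 filled point per library from the deposited TPM and 1 open point from estimated reads per TAIR10.1 exon length, with FAMA-LGK drawn above WT and equality dotted. FLP over MYB88 is 1.67 and 1.25 in FAMA-LGK, against 0.566 and 0.629 in WT. Every ratio separates the genotypes, as do the single values of 57.3% of all genes tested, and ratios that share a gene are not independent.

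Among the nearest relatives of these bHLH genes, 9 paralogs were examined, 7 from the subgroup of SPCH, MUTE and FAMA and 2 from that of SCRM. Of the 9, 8 lay below the minimum, at no more than 0.336 TPM in any library, and 3 were at 0 in all 4 libraries. The exception was bHLH070 (AT2G46810), a subgroup relative of FAMA. It was at 2.51 and 1.22 TPM in the FAMA-LGK libraries, against 11.9 and 10.6 TPM in the WT libraries. It was lower in FAMA-LGK (log2 fold change -2.13, 95% interval -2.88 to -1.38, limma adjusted p = 0.00321), and was at an adjusted p of 0.0562 with no filter on low values.

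Most signalling genes that act on these factors were not called. Of 23 listed, 20 passed the minimum, and in FAMA-LGK 3 of them were higher, 1 lower and 16 without a call, against 6.45% of all genes tested called higher and 6.14% lower. Their median log2 fold change was 0.09, against 0.06 over all genes tested. TMM, a receptor-like protein that patterns stomata, was at 81.6 and 91.6 TPM in FAMA-LGK and 45.7 and 46.0 TPM in WT (log2 fold change 0.90, limma adjusted p = 0.0182). SDD1, a protease that limits stomatal density, was at 26.5 and 22.9 TPM in FAMA-LGK and 12.3 and 8.09 TPM in WT (1.22, adjusted p = 0.0162). The polarity gene POLAR was at 8.61 and 11.5 TPM in FAMA-LGK and 4.46 and 3.34 TPM in WT (1.17, adjusted p = 0.0326). With FAMA-LGK replicate 1 left out, SDD1 was at an adjusted p of 0.0695 and POLAR at 0.0528, and with FAMA-LGK replicate 2 left out POLAR was at 0.128. With no filter on low values, TMM, SDD1 and POLAR were at 0.0584, 0.0866 and 0.119. A gene on the opposite strand overlaps 20.2% of the exon length of POLAR.

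HOS1, a ubiquitin ligase known to act on the SCRM protein in the cold response, was the one lower gene, at 3.68 and 5.08 TPM in FAMA-LGK and 16.7 and 14.5 TPM in WT (log2 fold change -1.63, limma adjusted p = 0.00508, and 0.0517 with no filter on low values). MPK3, a kinase of the cascade that destabilises SPCH, was at 78.6 and 80.1 TPM in FAMA-LGK and 92.3 and 62.9 TPM in WT, with overlapping groups. BIN2, a kinase that also phosphorylates SPCH, was at 86.7 and 87.8 TPM in FAMA-LGK and 133.6 and 117.8 TPM in WT, and its log2 fold change of -0.52 was not called (limma adjusted p = 0.122).

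Of 7 other transcriptional regulators of the lineage, 6 passed the minimum, 1 was higher and 5 were not called, against 12.6% of all genes tested called in either direction. The higher one was ATML1, the epidermal identity factor, at 23.5 and 25.2 TPM in FAMA-LGK and 9.44 and 7.19 TPM in WT (log2 fold change 1.45, limma adjusted p = 0.00514). RBR1, the protein whose binding site in FAMA the transgene alters, was at 14.3 and 12.6 TPM in FAMA-LGK and 16.7 and 15.6 TPM in WT, without a call (log2 fold change -0.25, limma adjusted p = 0.535).

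Division genes on which MUTE, FAMA, FLP and MYB88 are known to act were low in both genotypes. Of 12 listed, 8 passed the minimum and limma called 0, against 12.6% of all genes tested. Of the 8, 1 was at an unadjusted limma p under 0.05, against 4291 of all 15143 genes tested. Their median log2 fold change was 0.58, against 0.06 over all genes tested. CYCA2;2 and CDKB1;1 passed the minimum only through FAMA-LGK (WT means 0.772 and 0.529 TPM), so this median depends in part on the filter. The gene at an unadjusted p under 0.05 was CYCA2;2, an A-type cyclin, at 3.08 and 2.80 TPM in FAMA-LGK and 0.973 and 0.571 TPM in WT (log2 fold change 1.16, limma adjusted p = 0.077). CYCA2;3 was at 8.65 and 3.14 TPM in FAMA-LGK and 2.70 and 3.12 TPM in WT, and without FAMA-LGK replicate 1 its log2 fold change was 0.085.

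Among 11 guard cell genes, the class whose differentiation FAMA drives, 8 were lower and 1 higher in FAMA-LGK and 2 had no call, against 6.14% of all genes tested called lower and 6.45% higher. Their median log2 fold change was -2.53, against 0.06 over all genes tested. This list, like the others, was chosen with earlier results of these data known. GORK passed the minimum only through WT (mean 0.953 TPM in FAMA-LGK). SCAP1, a transcription factor of guard cell maturation, was at 2.07 and 2.61 TPM in FAMA-LGK and 19.1 and 17.4 TPM in WT (log2 fold change -2.53, limma adjusted p = 4.7e-04). KAT2, an inward potassium channel, was at 4.07 and 2.55 TPM in FAMA-LGK and 55.2 and 44.6 TPM in WT (-3.58, adjusted p = 6.7e-05). HT1, a kinase of the carbon dioxide response, was lower (log2 fold change -1.87, limma adjusted p = 0.00394, and 0.0664 with no filter on low values), as was SLAC1, an anion channel (-1.28, adjusted p = 0.00496), of which 36.3% of the exon length overlaps an opposite-strand gene. The guard cell markers GC1 and GORK were near the minimum in FAMA-LGK, at 1.13 and 2.09 TPM and at 0.436 and 1.47 TPM, against 132.7 and 114.2 TPM and 37.3 and 46.8 TPM in WT. MYB60, a guard cell MYB factor of another subgroup than FLP, was the higher one, at 113.8 and 98.5 TPM in FAMA-LGK and 35.6 and 25.6 TPM in WT (1.78, adjusted p = 0.00112).

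**Figure D4:**
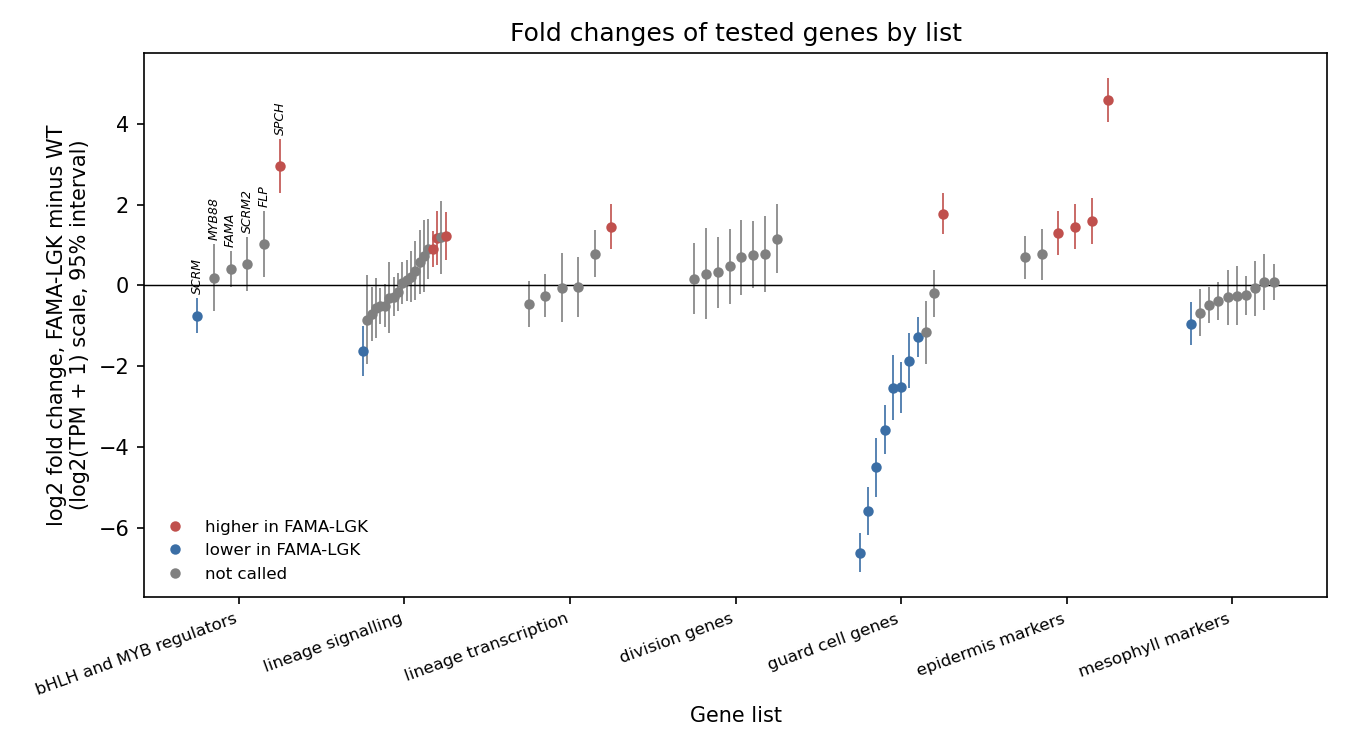
Log2 fold change (FAMA-LGK minus WT, log2(TPM + 1) scale) with its 95% interval for each tested gene, by list, coloured by call. SPCH at 2.96 and SCRM at -0.75 are the called regulators, and 8 of 11 guard cell genes are lower in FAMA-LGK.

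Markers of pavement cells and of the epidermis in general were mostly higher in FAMA-LGK. Those of the general epidermis do not mark a cell type other than guard cells, and ATML1 was also counted among the lineage regulators above. All 6 epidermis and pavement cell markers passed the minimum, 4 were higher in FAMA-LGK (LTP1, PDF1, ATML1 and FDH) and 2 were not called, against 6.45% of all genes tested called higher. Their summed level was 316.2 to 359.7 TPM in FAMA-LGK, against 81.8 to 115.8 TPM in WT. LTP1 had the largest shift of the 6, at 136.2 and 102.6 TPM in FAMA-LGK and 4.54 and 3.41 TPM in WT (log2 fold change 4.59). The 2 not called, PDF2 and CER5, had log2 fold changes of 0.77 and 0.69. Summed mesophyll markers were at 393.0 to 447.6 TPM in FAMA-LGK and 462.0 to 497.5 TPM in WT. Of the 10, 1 was called, against 12.6% of all genes tested: LHCB6, which was lower (limma adjusted p = 0.0287, and 0.0913 without FAMA-LGK replicate 1). With no filter on low values FDH (adjusted p = 0.0754) and LHCB6 (0.0936) were not called. All 4 vascular markers lay below the minimum (SWEET12 at 0 in every library), as did all 4 trichome markers (GL1 at 0 in both FAMA-LGK libraries). The part of other cell types in the SPCH, SCRM and FLP values was not tested. In such sorted bulk samples, more cells of a type and more RNA per cell cannot be told apart.

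Genes with the most similar pattern were found by Euclidean distance in log2(TPM + 1) over the 4 libraries. The 3 nearest to SPCH were PME5 (distance 0.28), AT5G12420 (0.57) and AT3G49130 (0.59). PME5, a pectin methylesterase gene, was at 24.3 and 37.3 TPM in FAMA-LGK and 4.02 and 3.42 TPM in WT. Nearest to FAMA were ATMG01200 (0.21), the vacuolar proton pump gene AVP1 (0.21) and AT3G05670 (0.22). Nearest to SCRM were the zinc finger gene ZAT11 (0.17), GR1 (0.19) and FRO1 (0.19). ZAT11 was at 93.6 and 81.2 TPM in FAMA-LGK and 156.9 and 152.6 TPM in WT.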

How the data were processed

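Per the labels, the authors counted reads per gene with HTSeq-count and normalised them to TPM; the deposited table holds 4 TPM columns, each summing to the same total. The submitters' processing notes also name TAIR10, Bowtie2 and CASAVA 1.8.2. The sources used here do not give strandedness, gene lengths or the treatment of reads that match several places. TPM keeps no depth. Whole reads were estimated as the smallest whole numbers (tolerance 0.005) giving a gene's 4 values; of 2000 genes, 93.8% came out whole at 1000 reads or fewer, against 10.2% with 1 library shuffled. Molecular identifiers are not mentioned in the labels, so intervals on reads cover counting error only.

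Values were tested with limma 3.58.1 in R 4.3.3 as log2(TPM + 1) (pseudocount 1, variance trend, two-sided, all 4 samples, mean of at least 1 TPM, 15143 genes, adjusted p threshold 0.05), after a check on simulated data. Coding sequences and overlaps came from RefSeq's TAIR10.1 annotation, in which 32835 of 33602 identifiers matched; Biopython 1.88 and BLAST 2.17.0 compared them. Among the best matches of the members elsewhere in the genome, the highest identity was 77.8% over 99 bases (FAMA). Longer matches were SCRM to SCRM2 (73.5% over 377 bases), FLP to MYB88 (77.1% over 306 bases) and MYB88 to FLP (74.0% over 511 bases). Figures used Python 3.11.15 and matplotlib 3.10.9.

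The members, lists and alternatives were chosen with earlier results of these data known. Named genes were the members, the listed genes past the threshold or among the 3 highest of their list, and the 3 nearest genes of SPCH, FAMA and SCRM; not every one is described.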

Additional observations from a re-analysis of the deposited data

How the results depend on the processing

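Of 139 recomputed values for the members, their ratios and the counts, 119 stayed the same, 8 lost a call, 12 counts moved by over 1.5 times and 0 reversed. Staying the same meant direction and side of the threshold for a gene, direction alone for a ratio, and within 1.5 times for a count. Some directions could not change: another filter or the replicate block leaves a log2 fold change as it is, and lengths cancel from ratios of single genes. The tally is therefore not a measure of robustness. The regulators called numbered 2 in the fit as reported, 1 with no filter on low values, 1 after removal of ribosomal RNA and organelle genes, and 0 to 1 with 1 library left out. The call lost was that of SCRM, whose log2 fold change was -0.75 with no filter, -0.56 with ribosomal RNA and organelle genes removed (where the median of all genes was 0.24 rather than 0.06) and -0.76 to -0.73 with 1 library left out. SPCH was at 2.64 to 3.29 with 1 library left out and lost its call only without either WT library; the cause was not tested. Calls in the lists around the members (paralogs, signalling, transcription, division, guard cell and other output genes) numbered 15, against 8 with no filter and 0 to 14 with 1 library left out. Over all genes limma called 1907, 511 with no filter, and 0 to 1685 with 1 library left out; higher calls were 51.2% of the total, 67.1% after removal of ribosomal RNA and organelle genes and 36.3% without FAMA-LGK replicate 2. Same-numbered libraries are known here to share only a number. Their deviations from the group means correlated at 0.078, the same value for both numbers because the 2 deviations in a group mirror each other. A shared batch was not tested. With the replicate number as a block, 2844 genes were called, SPCH and SCRM still among them (log2 fold changes 2.96 and -0.75). With 2 libraries a group, a lone library in the fits without one is assumed to vary like the other genotype. The estimated 1 and 3 MUTE reads in WT limit any value for that gene.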

Other observations

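On the deposited TPM scale, the 7 genes summed to nearly the same level in every library, although their shares differed. Such a sum depends on gene lengths and on library scaling, and it was not recomputed with ribosomal RNA and organelle genes removed. Nuclear ribosomal RNA took 33.0% of TPM in FAMA-LGK replicate 1 and 22.3% in FAMA-LGK replicate 2, so a total held constant cannot be read from these values. As deposited, the sum was 229.9 and 228.5 TPM in FAMA-LGK and 230.9 and 231.2 TPM in WT (means 229.2 ± 0.996 and 231.0 ± 0.218, SD, n = 2 libraries each), a pattern noticed after the values were seen. Known outputs of these factors outside the lineage were low: of CBF1, CBF2, CBF3, PIN3 and PIN7, the first 3 being cold-response genes linked to SCRM and the others auxin transporter genes linked to FLP and MYB88, only CBF2 passed the minimum. CBF2 was at 5.08 and 3.14 TPM in FAMA-LGK and 1.70 and 2.11 TPM in WT, without a call (log2 fold change 0.79, limma adjusted p = 0.183).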
